A study of Homo sapiens with 8 samples.

Results

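Expression of 10 genes was examined in the Ewing sarcoma cell line SK-N-MC, grown with and without oxygen deprivation and with and without repression of an enhancer. The genes were taken by symbol from a table of 60332 genes, and 10 of 10 were found. They comprise inhibitors of the kinase complex mTORC1 (DDIT4, DDIT4L, SESN1, SESN3, DEPTOR and TSC2), the alpha-arrestins TXNIP, ARRDC3 and ARRDC4, and MLXIP, the glucose-sensing factor also named MondoA. RNA was sequenced in 8 libraries, 2 for each of 4 groups. Every group carried a lentivirus for dCas9-KRAB, a catalytically dead Cas9 joined to a transcriptional repressor, and had been selected with puromycin at 1 μg/ml for 3 days. Control cells held the empty vector and were grown in normoxia, or in 1% O2 during 16 h. The paper's text calls the control cells of this experiment parental and does not describe their vector or selection. For eKD1 and for eKD2 a guide of its own brought the repressor beside the GGAA repeat upstream of LOXHD1, and both were analysed in hypoxia at the same oxygen level and time. The eKD cells were polyclonal pools of 1 cell line, infected at a MOI of 10 and used within 5 passages. No eKD library from normoxia was analysed here, so the hypoxia response of the eKD cells themselves could not be measured.

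mTORC1 couples nutrient, oxygen and energy supply to protein synthesis and growth. DDIT4, also known as REDD1, is induced by hypoxia and other stresses and acts through the TSC complex, in which TSC2 switches off the small GTPase RHEB that activates mTORC1. Sestrins bind the GATOR2 complex and so report amino acid supply, and DEPTOR binds the kinase itself. TXNIP binds thioredoxin and lowers glucose uptake by promoting internalization of glucose transporters, and ARRDC4 is its close relative. Transcription of both is driven by MLXIP with its partner MLX when glucose phosphates accumulate.

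Values are FPKM, read fragments per kilobase of transcript scaled to library size, so that levels of different genes can be compared per length. Relative to replicate 1 of control hypoxia, the depth read from the low values lay between 55.9% and 95.9% in the other 7 libraries, and absolute depth is unknown. LOXHD1, the gene whose enhancer was targeted, lay between 11.7 and 17.3 FPKM in the 4 eKD libraries and between 91.1 and 169 FPKM in the 4 controls, the direction that the labels imply. All 10 Ewing sarcoma markers checked, among them FLI1, NR0B1 and NKX2-2, were at 1 FPKM or more in all 8 libraries. All 5 fibroblast markers were also at 1 FPKM or more in all libraries, with sums of 366 to 369 FPKM in control normoxia, 567 to 583 in control hypoxia, 562 to 596 in eKD1 and 546 to 556 in eKD2. Of 5 epithelial markers 3 reached that level in all libraries (sums of 85.4 to 152 FPKM, lowest in control hypoxia). Of 5 leukocyte markers only PTPRC did (sums of 24.3 to 24.5 FPKM in control normoxia and 7.99 to 18.0 FPKM in hypoxia), and CD3E and MS4A1 were listed at 0 in all 8. The part of these markers in the results was not tested. All libraries are of 1 cell line, so the marker lists are not read as separate cell types. In such bulk samples fewer cells expressing a gene and less RNA per cell cannot be told apart.

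Of the 10 genes, 8 passed the filter of at least 1 FPKM in at least 2 libraries and were tested. DDIT4L and SESN3 did not pass, the former with no value above 0.235 FPKM and the latter with none above 0.463 FPKM. DEPTOR reached 1 FPKM in only 3 libraries, both of eKD2 and replicate 2 of eKD1. It therefore entered the test only through eKD2, the group in which it was highest. Changes are given on the scale of log2(FPKM + 1), which understates those of low genes. A gene was called at a limma adjusted p under 0.05. The share of all genes without overlap between 2 groups was not counted, so a lack of overlap, here and below, is a description only. With any 1 library left out, which leaves 1 residual degree of freedom, limma called 0 genes in all 4 comparisons.

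**Figure D1:**
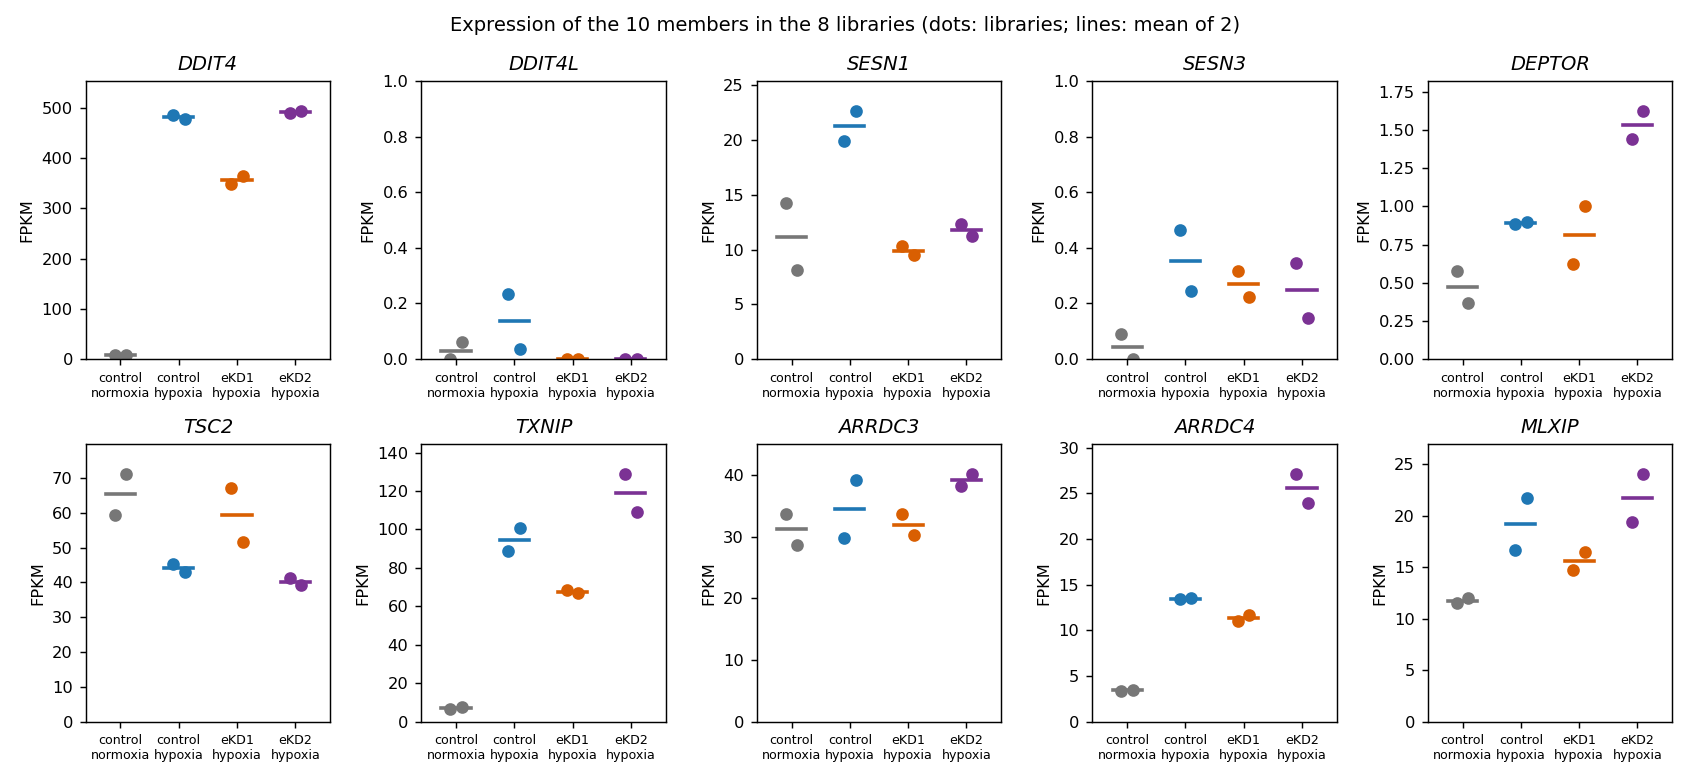
FPKM of each of the 10 genes (y axes, linear and starting at 0) in the 2 libraries of each group (dots), with the mean of the group as a line. DDIT4 and TXNIP were near the bottom of their axes in control normoxia and far above it in all 6 hypoxia libraries, ARRDC4 was highest in eKD2, and the libraries of ARRDC3 overlapped between most groups.

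The first comparison asked how these genes respond to low oxygen in control cells. DDIT4, TXNIP and ARRDC4 rose and TSC2 fell, while SESN1, DEPTOR, ARRDC3 and MLXIP were not called. The 4 called genes are 50% of the 8 tested, against 32.2% of all 15372 genes tested, of which 16.2% were higher and 16.0% lower. The genes were chosen with earlier results of these data known, so shares above that of all genes, here and below, are a description only. With the FPKM totals of all libraries set equal, 28.4% of all called genes were higher in place of 50.3%, and the median change of all genes moved from 0.01 to -0.19. Under that scaling the 4 calls among the 8 genes kept their directions.

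DDIT4 (ENSG00000168209.4_2, chr10:74033678-74035794 on the plus strand, GRCh37) had by far the largest response of the group. It was at 7.53 and 7.58 FPKM in control normoxia and at 486 and 477 FPKM in control hypoxia, a 63.7-fold ratio of means. Duplicates differed by far less than the groups in both conditions. The log2 change of 5.82 (SE 0.0566, adjusted p = 0.0014) ranked 11 by size among the 15372 genes. Its paralog DDIT4L, which also inhibits mTORC1, was listed at 0 and 0.0609 FPKM in control normoxia and at 0.235 and 0.0353 FPKM in control hypoxia, and it was listed at 0 in all 4 eKD libraries. The induced family member was thus DDIT4, and DDIT4L was barely detected in any group.

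TXNIP (ENSG00000265972.5_2, chr1:145438490-145442635 on the plus strand, GRCh37) was at 6.48 and 7.84 FPKM in control normoxia and at 88.6 and 101 FPKM in control hypoxia. The ratio of means was 13.2-fold and the log2 change was 3.56 (SE 0.132, adjusted p = 0.00551), ranking 62 by size. ARRDC4 (ENSG00000140450.8_2, chr15:98503933-98517063 on the plus strand, GRCh37), an adaptor for NEDD4-family ubiquitin ligases like the other alpha-arrestins, went from 3.40 and 3.47 FPKM to 13.4 and 13.5 FPKM. That was a 3.91-fold ratio of means and a log2 change of 1.70 (SE 0.117, adjusted p = 0.00801). In both genes all hypoxia libraries lay above all normoxia libraries. ARRDC3 (ENSG00000113369.8_2, chr5:90664448-90679134 on the minus strand, GRCh37), which helps to remove beta-adrenergic receptors from the cell surface, was at 33.7 and 28.7 FPKM in normoxia and at 29.9 and 39.2 FPKM in hypoxia. Its groups overlapped, and the log2 change of 0.13 (SE 0.174, adjusted p = 0.588) turned to -0.10 with equal FPKM totals and to -0.06 without replicate 2 of control hypoxia. In normoxia ARRDC3 was the most abundant of the 3 arrestins per length, and in control hypoxia TXNIP was.

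MLXIP (ENSG00000175727.9, chr12:122516628-122631894 on the plus strand, GRCh37) was at 11.5 and 11.99 FPKM in control normoxia and at 16.7 and 21.7 FPKM in control hypoxia. The groups did not overlap, but the log2 change of 0.65 (SE 0.16) missed the threshold at an adjusted p = 0.0502, and it passed at an adjusted p = 0.0219 when the spread was estimated over all 8 libraries, called the shared fit below. Its DNA-binding partner MLX fell by 0.42 on the log2 scale (SE 0.0772, adjusted p = 0.0288), from 42.2 and 40.1 FPKM to 31.4 and 29.7 FPKM. The related sensor MLXIPL, or ChREBP, was between 2.65 and 4.41 FPKM in all 8 libraries, so MLXIP was the more abundant of the 2 sensors per length in every library.

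Among the other mTORC1 inhibitors, TSC2 (ENSG00000103197.16_3, chr16:2097968-2139492 on the plus strand, GRCh37) was at 59.5 and 71.3 FPKM in control normoxia and at 45.4 and 42.9 FPKM in control hypoxia. It fell by 0.55 on the log2 scale (SE 0.113, adjusted p = 0.0358) without overlap between the groups. This call was lost without a filter on low values (adjusted p = 0.0593) and without a variance trend (adjusted p = 0.0571). TSC2 shares 784 exon bases, 3.82% of its merged exons, with PKD1 on the opposite strand, and reads of the pair there cannot be told apart if strand was not used in counting. SESN1 (ENSG00000080546.13_2, chr6:109305512-109416049 on the minus strand, GRCh37), a p53 target, was at 14.2 and 8.16 FPKM in normoxia and at 19.9 and 22.7 FPKM in hypoxia. The normoxia duplicates were far apart, and the log2 change of 0.92 (SE 0.286, adjusted p = 0.084) was 1.28 without replicate 1 of control normoxia and 0.55 without replicate 2. In the shared fit it passed at an adjusted p = 0.0245, and 37.9% of all genes were called there. DEPTOR (ENSG00000155792.9_2), at 0.577 and 0.368 FPKM in normoxia and at 0.887 and 0.899 FPKM in hypoxia, was not called (log2 change 0.37, SE 0.176, adjusted p = 0.192). SESN3 was listed at 0.0888 and 0 FPKM in normoxia and at 0.463 and 0.244 FPKM in hypoxia, which is too low to compare, and lay between 0.147 and 0.347 FPKM in the eKD libraries. Antisense genes also share exon bases with DEPTOR (252), SESN1 (363) and ARRDC3 (145), while DDIT4, TXNIP, ARRDC4 and MLXIP share none with an annotated gene on the opposite strand.

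**Figure D2:**
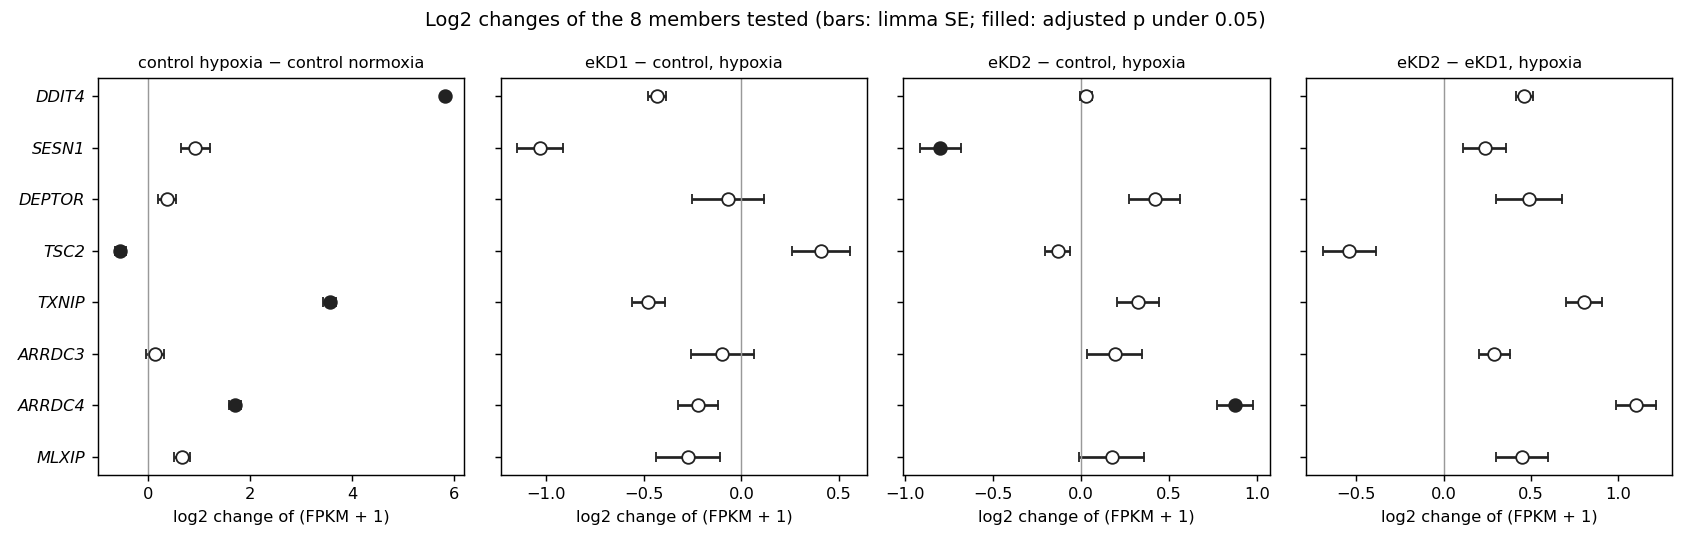
Log2 change of (FPKM + 1) of the 8 genes tested in the 4 comparisons, with the limma SE as bars and filled dots for an adjusted p under 0.05. The x axes differ in range between panels. Filled dots were DDIT4, TSC2, TXNIP and ARRDC4 for hypoxia and SESN1 and ARRDC4 for eKD2, and eKD1 and the comparison of the eKD groups had none.

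Sequence before the gene start is shown for DDIT4, TXNIP and ARRDC4, which rose in hypoxia, and for ARRDC3, which was not called. The motifs searched, short ones of oxygen and glucose response among them, were added after values were seen. RefSeq promoter windows of 300 bases, 250 before and 50 after the gene start (GRCh38.p14), were found for 9 of the 10 genes. Each window was searched on both strands for ACGTG and GCGTG, the cores of the hypoxia response element, for the E-box CACGTG, which contains ACGTG, for CACGNG in 2 copies 5 bases apart, the layout of a carbohydrate response element, and for TGATGNAAT, the element bound by ATF4 with C/EBP partners. The 250 bases upstream are printed 5′ to 3′ on the strand of the gene, with matches on either strand in capitals. The windows are chr10:72273674-72273923 on the plus strand for DDIT4, chr1:145996580-145996829 on the minus strand for TXNIP, whose strand differs between the builds, chr15:97960453-97960702 on the plus strand for ARRDC4 and chr5:91383318-91383567 on the minus strand for ARRDC3.
DDIT4: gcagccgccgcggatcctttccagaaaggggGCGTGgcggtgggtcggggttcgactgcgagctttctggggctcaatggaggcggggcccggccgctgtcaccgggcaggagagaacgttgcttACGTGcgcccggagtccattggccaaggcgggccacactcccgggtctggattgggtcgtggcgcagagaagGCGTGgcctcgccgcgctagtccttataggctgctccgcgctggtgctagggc
TXNIP: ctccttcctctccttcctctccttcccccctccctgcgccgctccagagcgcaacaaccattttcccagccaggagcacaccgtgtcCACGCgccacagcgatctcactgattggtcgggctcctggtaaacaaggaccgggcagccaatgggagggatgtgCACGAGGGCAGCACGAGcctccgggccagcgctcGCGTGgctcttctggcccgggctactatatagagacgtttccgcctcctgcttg
ARRDC4: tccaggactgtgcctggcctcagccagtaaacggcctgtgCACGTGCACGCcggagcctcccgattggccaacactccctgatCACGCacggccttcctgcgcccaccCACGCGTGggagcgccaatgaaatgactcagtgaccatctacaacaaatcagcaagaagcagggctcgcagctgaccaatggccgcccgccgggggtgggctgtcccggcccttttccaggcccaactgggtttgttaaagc
ARRDC3: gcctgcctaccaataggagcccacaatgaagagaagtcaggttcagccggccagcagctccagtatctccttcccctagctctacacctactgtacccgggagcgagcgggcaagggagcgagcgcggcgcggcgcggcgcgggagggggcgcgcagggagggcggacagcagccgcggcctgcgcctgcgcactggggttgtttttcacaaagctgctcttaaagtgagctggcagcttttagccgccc

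DDIT4 held 1 match to ACGTG, at 125 bases before the start, and 3 to GCGTG, of which 1 lies past the start and is not printed. TXNIP held the spaced pair, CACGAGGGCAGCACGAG, beginning 88 bases before the start, and 2 matches to GCGTG. The pair was present in 20 of 35116 promoter windows (0.057%) and in no other of the 9 genes. ARRDC4 held an E-box beginning 210 bases before the start, which accounts for its 2 matches to ACGTG, and 4 matches to GCGTG. ARRDC3 held no match to any of the 5 motifs. ACGTG was found in 3 of the 9 genes and 21.4% of all windows, GCGTG in 4 of 9 and 36.5%, CACGTG in 2 of 9 and 7.26%, and TGATGNAAT in 0 of 9 and 0.991%. TSC2, which fell, also held an E-box and with it 2 matches to ACGTG. MLXIP, which was not called, held 2 matches to GCGTG, and SESN1, also not called, held none of the 5 motifs. Whether the motifs bear on the responses was not tested. A match is a description of letters and does not show binding.

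The next comparison asked what changed in hypoxia when the LOXHD1 enhancer was repressed by the eKD1 guide. None of the 8 genes was called by limma, and 3 had an unadjusted p under 0.05, namely DDIT4, SESN1 and TXNIP. Over all genes, 0.0651% were called and 21.7% had an unadjusted p under 0.05. The control hypoxia libraries also serve as the baseline of the eKD2 comparison and as the treated group of the hypoxia comparison, so the 3 sets of changes are not independent.

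DDIT4 was at 348 and 365 FPKM in eKD1, below both control hypoxia libraries, with a log2 change of -0.43 (SE 0.0454, adjusted p = 0.102). In the shared fit its adjusted p was 0.0149, where 4.95% of all genes were called. The mean in eKD1 was still 47.2 times that of control normoxia, against 63.7 times in control hypoxia. SESN1 was at 10.3 and 9.51 FPKM in eKD1, less than either control hypoxia library and within the range of control normoxia. Its log2 change was -1.03 (SE 0.118, adjusted p = 0.102). TXNIP was at 68.4 and 66.9 FPKM, also below both control hypoxia libraries, with a log2 change of -0.48 (SE 0.0849, adjusted p = 0.12). TSC2 lay above the control libraries at 67.2 and 51.6 FPKM (log2 change 0.41, SE 0.15, adjusted p = 0.24), with duplicates that differed more than in control hypoxia, and its change was 0.22 without eKD1 replicate 1 and 0.60 without replicate 2. For these genes the groups did not overlap, and no difference passed the threshold in the comparison of 2 against 2 libraries. Below control hypoxia by less were ARRDC4 at 11.0 and 11.7 FPKM (log2 change -0.22, SE 0.103, adjusted p = 0.309) and MLXIP at 14.7 and 16.5 FPKM (log2 change -0.27, SE 0.166, adjusted p = 0.416). The change of MLXIP was -0.45 without control hypoxia replicate 1 and -0.094 without replicate 2. ARRDC3 at 33.6 and 30.3 FPKM and DEPTOR at 0.624 and 1.00 FPKM overlapped with the control hypoxia libraries.

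With the eKD2 guide, ARRDC4 rose and SESN1 fell relative to control hypoxia, and the other 6 genes were not called. The 2 called genes are 25% of the 8 tested, against 9.61% of all genes, of which 5.80% were higher and 3.81% lower. Of all called genes 60.3% were higher, a share that was 47.4% after median-of-ratios rescaling and 77.5% with equal FPKM totals. ARRDC4 was at 27.2 and 23.9 FPKM, a 1.90-fold ratio of means to control hypoxia, with a log2 change of 0.88 (SE 0.103, adjusted p = 0.0339). Both eKD2 libraries exceeded every other library. SESN1 was at 12.4 and 11.3 FPKM and fell by 0.80 on the log2 scale (SE 0.116, adjusted p = 0.0417). Both libraries lay below both control hypoxia libraries and inside the range of control normoxia. Both calls depended on the fit. Without a filter on low values the adjusted p was 0.0598 for ARRDC4 and 0.0713 for SESN1, without a variance trend it was 0.0567 and 0.0621, and in the shared fit, which called 16.9% of all genes, ARRDC4 passed at 0.00562 and SESN1 did not at 0.0667.

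DDIT4 was at 489 and 494 FPKM in eKD2, above both control hypoxia libraries by little, with a log2 change of 0.03 (SE 0.035, adjusted p = 0.609) that turned to -0.04 after median-of-ratios rescaling. TXNIP was at 129 and 109 FPKM (log2 change 0.33, SE 0.119, adjusted p = 0.163), with a change of 0.21 without eKD2 replicate 1 and 0.45 without replicate 2. For both genes each eKD2 library lay above each control hypoxia library, and neither difference passed the test. TSC2, at 41.3 and 39.1 FPKM, had a log2 change of -0.13 (SE 0.0717, adjusted p = 0.292). ARRDC3 was at 38.3 and 40.2 FPKM and MLXIP at 19.4 and 24.1 FPKM, and each overlapped with control hypoxia. DEPTOR was at 1.44 and 1.63 FPKM, its highest level in the study, but was not called (log2 change 0.42, SE 0.144, adjusted p = 0.146).

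Both guides target the same enhancer, and the direct comparison of eKD2 with eKD1 asked where they differed. None of the 8 genes was called by limma, against 0.403% of all genes, and 6 had an unadjusted p under 0.05, against 23.6% of all genes. ARRDC4 was 2.25-fold higher by the ratio of means in eKD2 (log2 change 1.10, SE 0.114, adjusted p = 0.0754), TXNIP 1.76-fold higher (log2 change 0.80, SE 0.102, adjusted p = 0.0794) and DDIT4 1.38-fold higher (log2 change 0.46, SE 0.0465, adjusted p = 0.0705). In each of the 3 genes both eKD2 libraries lay above both eKD1 libraries, but the groups of the other genes tested did not overlap either. The shared fit called all 3, at an adjusted p of 0.00542, 0.0179 and 0.00674, and there 9.05% of all genes were called. TSC2 had a log2 change of -0.54 (SE 0.153, adjusted p = 0.163), or -0.35 without eKD1 replicate 1, and SESN1, low with both guides, one of 0.23 (SE 0.121, adjusted p = 0.336).

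Over the 4 groups the genes had different orders of level. For DDIT4, TXNIP and ARRDC4 the order from low to high was control normoxia, eKD1, control hypoxia and eKD2, with no overlap between neighbouring groups. For DDIT4 the step from control hypoxia to eKD2 was only from 486 to 489 FPKM between the nearest libraries. Its log2 change of 0.03 turned to -0.04 after median-of-ratios rescaling. Among the steps between hypoxia groups, only that of ARRDC4 from control hypoxia to eKD2 was called. How many of all genes had such an order without overlap was not counted, so the shared order is a description only. MLXIP had the same order of means, with overlap between control hypoxia and eKD2. SESN1 alone was highest in control hypoxia among the 8 genes tested, and both eKD groups lay within the range of control normoxia. TSC2 was lowest in eKD2 and highest in control normoxia, which overlapped with eKD1.

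The genes whose profile over the 8 libraries was most like that of a member were found by Pearson r of log2(FPKM + 1) among 10680 genes with a mean of at least 5 FPKM. For DDIT4 they were LDHA (r = 0.998), FAM162A (r = 0.998) and VKORC1 (r = 0.998), for TXNIP TUFT1 (r = 0.997), CRKL (r = 0.997) and the glucose transporter gene SLC2A3 (r = 0.996), and for ARRDC4 NFIL3 (r = 0.996), CYR61 (r = 0.995) and INPP4A (r = 0.993). The 8 libraries form 4 groups, so these values mostly reflect the order of 4 group means and are a description.

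The other genes of the pathways were read from 11 lists of 93 genes, of which 88 were tested. In hypoxia 21 were higher, 15 lower and 52 not called, so that 40.9% were called, against 32.2% of all genes. The lists too were chosen with earlier results of these data known. This share, those of single lists and those in the eKD groups below are therefore a description only. The median log2 change was 0.08, against 0.01 over all genes tested.

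**Figure D3:**
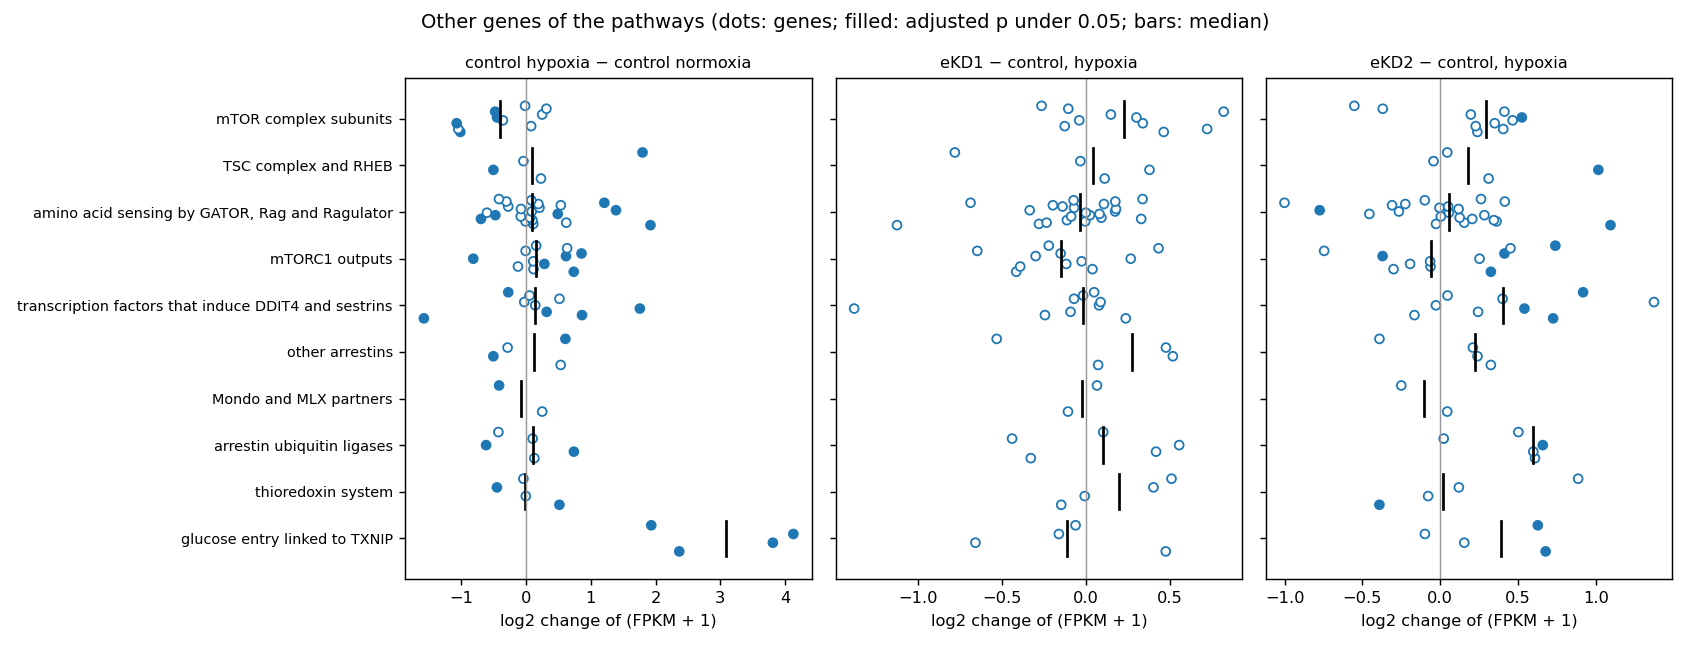
Log2 change of (FPKM + 1) of the pathway genes tested in 10 of the 11 lists, for hypoxia, eKD1 and eKD2 (dots; filled for an adjusted p under 0.05), with the median of each list as a vertical bar. The x axes differ in range between panels. In hypoxia all 4 tested genes of glucose entry were filled and to the right, and in eKD1 no gene was filled.

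Of 10 subunits of the mTOR complexes, 4 were lower in hypoxia and 0 higher, 40% called against 32.2% of all genes. AKT1S1, the PRAS40 subunit that inhibits mTORC1, fell by 1.07 on the log2 scale (adjusted p = 0.00801), and MTOR, the kinase itself, fell by 1.02 (adjusted p = 0.0151), from 34.2 and 30.6 FPKM to 14.1 and 17.0 FPKM. In the TSC and RHEB list of 4, 50% were called. The TSC complex subunit TBC1D7 fell by 0.51 (adjusted p = 0.0204). The RHEB relative RHEBL1 rose by 1.80 (adjusted p = 0.01), from 0.625 and 0.512 FPKM to 4.01 and 4.93 FPKM. RHEBL1 reached 1 FPKM only in hypoxia libraries, so it passed the filter through the groups in which it was higher. RHEB, the target of TSC2, lay between 71.9 and 80.6 FPKM over the 8 libraries.

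In the amino acid sensing list, 4 of 22 genes were higher and 2 lower, 27.3% called against 32.2% of all genes. SESN2, the stress-induced sestrin that senses leucine, was at 2.27 and 3.19 FPKM in control normoxia and at 12.1 and 14.0 FPKM in control hypoxia (log2 change 1.92, SE 0.189, adjusted p = 0.0101). RRAGD, a Rag GTPase that recruits mTORC1 to lysosomes, rose by 1.39 (adjusted p = 0.0189). WDR24 and SEH1L, both of GATOR2, fell by 0.70 (adjusted p = 0.0496) and by 0.48 (adjusted p = 0.0209). Upstream of mTORC1, the AMPK subunit PRKAB2 (log2 change 0.77, adjusted p = 0.017) and the AMPK-activating kinase STK11 (0.29, adjusted p = 0.0365) were higher, and the insulin receptor substrate IRS2 was lower (-0.51, adjusted p = 0.0155).

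Among 11 output genes, 4 were higher and 1 lower, 45.5% called against 32.2% of all genes. PDCD4, an inhibitor of translation initiation, rose by 0.86 (adjusted p = 0.0206), and EIF4EBP1, the translational repressor that mTORC1 phosphorylates, rose by 0.74 (adjusted p = 0.00665), from 458 and 443 FPKM to 750 and 751 FPKM. EIF4E, the cap-binding factor held by EIF4EBP1, fell by 0.82 (adjusted p = 0.00863). Also called higher were RPS6, a ribosomal protein phosphorylated downstream of mTORC1, and the S6 kinase gene RPS6KB2. RPS6 rose by 0.62 (adjusted p = 0.00729), from 2203 and 2298 FPKM to 3502 and 3400 FPKM. RPS6KB2 rose by 0.28 (adjusted p = 0.0391). Of the 9 transcription factors that induce DDIT4 or sestrins, 3 were higher and 2 lower, 55.6% called against 32.2% of all genes. DDIT3, the stress factor CHOP, rose by 1.76 (adjusted p = 0.00505), ARNT, the partner of HIF1A, by 0.86 (adjusted p = 0.0143) and ATF4 by 0.32 (adjusted p = 0.0187), while HIF1A mRNA fell by 1.58 (adjusted p = 0.00809) and NFE2L2 by 0.28 (adjusted p = 0.0476).

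Around TXNIP, all 4 tested genes of glucose entry rose in hypoxia, where 16.2% of all genes were called higher. The hexokinase HK1 was at 1.95 and 1.41 FPKM in control normoxia and at 49.3 and 42.3 FPKM in control hypoxia, a log2 change of 4.13 (adjusted p = 0.0063), which could not be checked at the level of reads or transcripts here. Log2 changes were for SLC2A3 3.81 (adjusted p = 0.004), for the main glucose transporter gene SLC2A1 2.37 (adjusted p = 0.00417) and for HK2, the other hexokinase, 1.93 (adjusted p = 0.00622). Thioredoxin itself, TXN, was at 351 and 375 FPKM in control normoxia and at 530 and 509 FPKM in control hypoxia and rose by 0.51 (adjusted p = 0.0109), while the reductase TXNRD1 fell by 0.45 (adjusted p = 0.0375). TXN lay above TXNIP per length in every library. Of 5 ubiquitin ligases that work with arrestins, 40% were called in either direction, against 32.2% of all genes. NEDD4L rose by 0.74 (adjusted p = 0.0343) and ITCH, which ubiquitinates TXNIP, fell by 0.62 (adjusted p = 0.0266). Of 4 other arrestins, 50% were called, also against 32.2% of all genes. ARRB2 rose by 0.61 (adjusted p = 0.0294) and ARRDC2 fell by 0.51 (adjusted p = 0.0441).

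In eKD1 0 of the 88 pathway genes were called by limma, against 0.0651% of all genes. The shared fit called 9 of them, against 4.95% of all genes, and 26 had an unadjusted p under 0.05, against 21.7%, with a median log2 change of -0.0064 against 0.0024 over all genes. SESN2 was at 5.45 and 5.40 FPKM, less than control hypoxia in both libraries (log2 change -1.13, SE 0.131, adjusted p = 0.102), and DDIT3 was at 55.8 and 49.1 FPKM against 141 and 136 FPKM (log2 change -1.38, SE 0.0846, adjusted p = 0.101). In eKD2 15 of the 88 genes were higher and 3 lower, 20.5% against 9.61% of all genes, with a median log2 change of 0.14 against 0.05. SESN2 rose by 1.09 (SE 0.104, adjusted p = 0.0294) to 28.9 and 29.0 FPKM and DDIT3 by 0.54 (SE 0.0489, adjusted p = 0.0287) to 198 and 205 FPKM. The sestrins therefore moved apart with this guide, SESN2 upward and SESN1 downward. ATF4 itself was at 381 and 405 FPKM and was not called (log2 change 0.24, adjusted p = 0.0612).

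**Figure D4:**
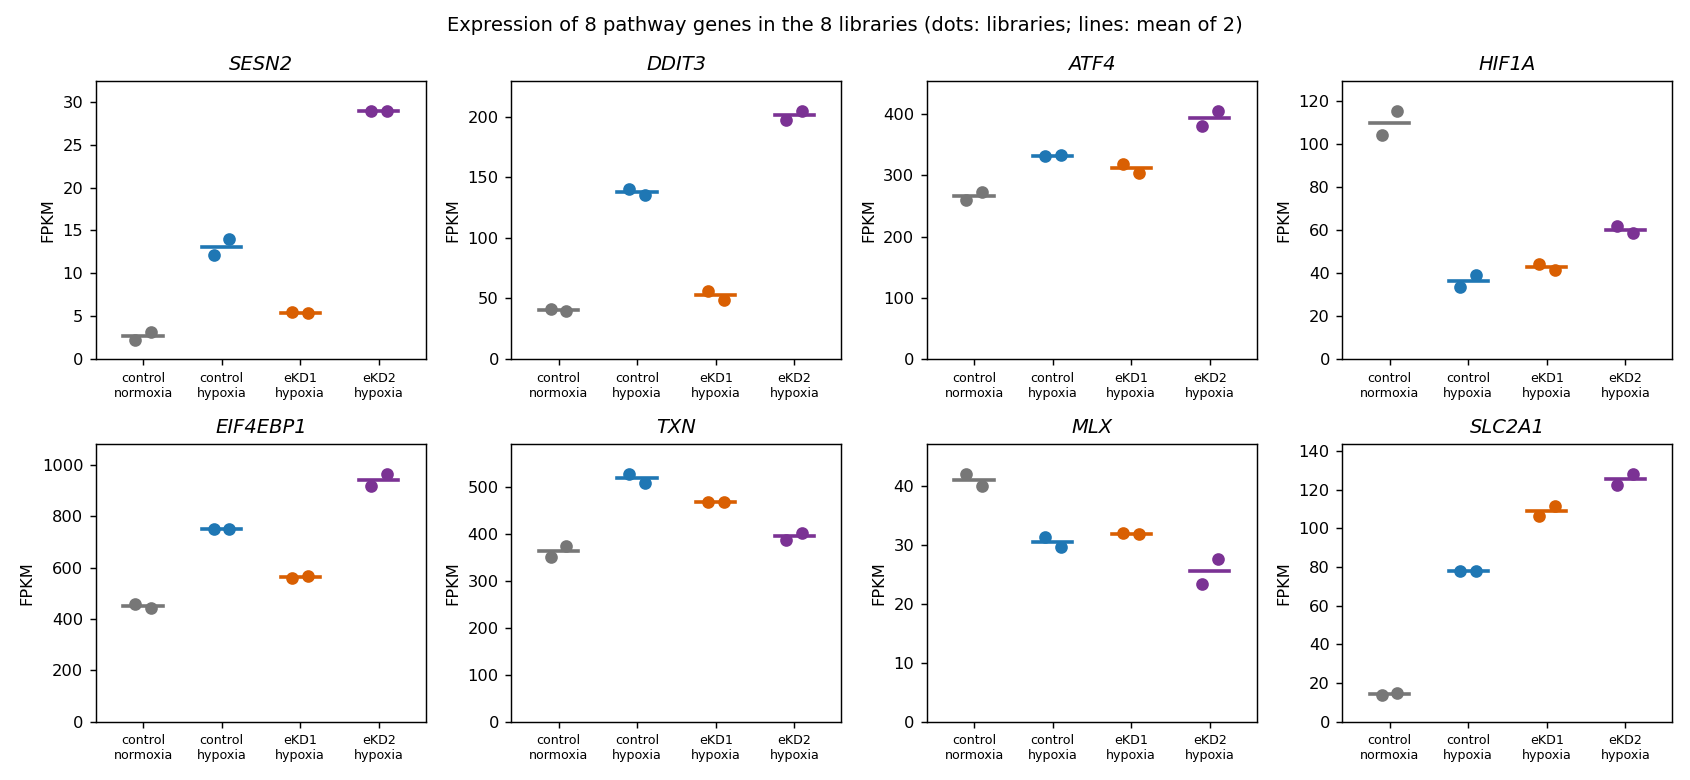
FPKM of 8 pathway genes (y axes, linear and starting at 0) in the 2 libraries of each group (dots), with the group mean as a line. SESN2 and DDIT3 were low in control normoxia and eKD1 relative to control hypoxia and highest in eKD2, while HIF1A mRNA was highest in control normoxia.

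Other genes called in eKD2 included TBC1D7 (log2 change 1.02, adjusted p = 0.0305), the insulin receptor substrate IRS1 (1.34, adjusted p = 0.0418), the phosphoinositide kinase gene PIK3CA (0.79, adjusted p = 0.0362), the insulin signalling adaptor GRB10 (0.74, adjusted p = 0.0331), the mTORC2 subunit MAPKAP1 (0.52, adjusted p = 0.0369) and PDCD4 (0.41, adjusted p = 0.042). NFE2L2, the oxidative stress factor NRF2, rose by 0.92 (adjusted p = 0.0285) and HIF1A mRNA by 0.73 (adjusted p = 0.0408). RRAGD, which rose in hypoxia, fell by 0.77 (adjusted p = 0.0362), and RPS6, which also rose in hypoxia, fell by 0.37 (adjusted p = 0.0284). Around TXNIP, ITCH rose by 0.66 (adjusted p = 0.0432), SLC2A1 by 0.68 (adjusted p = 0.0273) and HK2 by 0.63 (adjusted p = 0.0305), while TXN fell by 0.39 (adjusted p = 0.0322). MLX was at 23.5 and 27.7 FPKM and was not called (log2 change -0.25, adjusted p = 0.22). Without a filter on low values 0 of the pathway genes were called in eKD2, as was the case without a variance trend.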

How the data were processed

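The authors sequenced poly-A selected RNA with single-end reads, mapped it to GRCh37 using STAR and derived FPKM per gene by cufflinks and cuffnorm. These deposited FPKM values stand in 1 table with 1 column per library. The scaling between libraries is not given in the sources used here, and the study's own tests used counts, which were not used here. FPKM holds no read totals, so no counting interval or floor was computed.

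Values were analysed as log2(FPKM + 1), with a pseudocount of 1. Genes reaching 1 FPKM in 2 or more of the 8 libraries (15372) were tested with limma 3.58.1 in R 4.3.3 (lmFit, eBayes with a variance trend). A separate fit was made for every comparison (2 against 2 libraries), with Benjamini-Hochberg adjustment over all genes tested. P-values are two-sided. They measure the spread between duplicates, which the study calls biological. The fit was tested on simulated data. Groups and replicate numbers came from the sample titles. Alternatives changed the pseudocount (0.1), the filter (none, or a mean of 5 FPKM), the scaling (median-of-ratios, equal totals), the libraries fitted (all 8 together, or 1 left out at a time), the variance trend (none) and the design (a replicate block).

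The genes and the pathway lists were chosen with earlier results of these data known. The text names the 10 genes, up to 2 called genes with the largest change in each direction per pathway list and comparison, and could also name, where the text turned on them, SESN2, ARRDC2, MLX, MLXIPL, TXN, RHEB, TSC1, MTOR, ATF4, HIF1A and SLC2A1. HK2, RPS6 and RPS6KB2 in hypoxia, DDIT3 in eKD1 and eKD2, and the motifs were added after values were seen. The counts of 1 pathway list are not reported on their own here. Gene positions came from GENCODE version 44 on GRCh37, and promoter sequences from RefSeq on GRCh38.p14.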

Additional observations from a re-analysis of the deposited data

Results flagged for a closer look

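Of the 88 pathway genes tested, 3 differed between the eKD groups, which repress the same enhancer, by the direct limma test of eKD2 against eKD1. SESN2 was higher in eKD2 by 2.22 on the log2 scale (SE 0.0984, adjusted p = 0.0273), a 5.33-fold ratio of means. DDIT3 was higher by 1.92 (SE 0.0846, adjusted p = 0.0273), a 3.84-fold ratio. EIF4EBP1 was higher by 0.74 (SE 0.0466, adjusted p = 0.0461), from 558 and 567 FPKM to 916 and 966 FPKM. In each case both eKD2 libraries lay above both eKD1 libraries. Of all genes 0.403% were called in this comparison. The adjusted p of SESN2, DDIT3 and EIF4EBP1 was 0.0583, 0.0634 and 0.0981 without a filter on low values, 0.0527, 0.0758 and 0.121 without a variance trend and 0.207 for each with a replicate block, so that all 3 calls were lost in these fits, as with any library left out. EIF4EBP1 was also lost after median-of-ratios rescaling (adjusted p = 0.0522) and with equal FPKM totals (adjusted p = 0.0512). Guide and culture cannot be told apart, since a guide has only 1 group.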

How the results depend on the processing

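Over all alternatives, 334 values of the 8 tested genes kept their direction and their side of the threshold, 34 lost and 6 gained a call, and 6 turned. The turned values, none of them called before, were ARRDC3 in hypoxia with equal FPKM totals (-0.10), DDIT4 in eKD2 after median-of-ratios rescaling (-0.037) and 4 with 1 library left out. Those were ARRDC3 in hypoxia (-0.056 without control hypoxia replicate 2, 0.33 without replicate 1), ARRDC3 in eKD1 (0.094 and -0.29 without the same libraries), DEPTOR in eKD1 (0.082 without eKD1 replicate 1, -0.22 without replicate 2) and MLXIP in eKD2 (-0.0060 without control hypoxia replicate 1, 0.35 without replicate 2). The hypoxia calls of DDIT4, TXNIP and ARRDC4 held in all 8 alternatives that kept every library.

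With 1 library left out, limma called between 0 and 0 genes in every comparison. The 3 libraries that remain leave 1 residual degree of freedom. The lone library of a group is then assumed to vary like the other group.

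Genes called numbered 4946 in hypoxia, 10 in eKD1, 1477 in eKD2 and 62 in eKD2 against eKD1. Without a filter they were 6 in eKD1, 25 in eKD2 and 13 in eKD2 against eKD1, with 0 members and 0 pathway genes in eKD2 and 0 pathway genes between the eKD groups. Without a variance trend they were 6, 28 and 5, again with 0 members and 0 pathway genes in eKD2 and 0 pathway genes between the eKD groups. With a filter at a mean of 5 FPKM, 105 were called between the eKD groups. The shared fit called 761 genes, 1 member and 9 pathway genes in eKD1, 2601 genes and 1 member in eKD2, and 1391 genes, 3 members and 15 pathway genes between the eKD groups.

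Same-numbered libraries showed little shared deviation: correlations of same-numbered deviations ran from -0.057 to 0.126 over 6 pairs of groups. Whether same-numbered libraries were prepared together is not known. With a replicate block, 2570 genes and 21 pathway genes were called in hypoxia and 0 genes, 0 members and 0 pathway genes in each eKD comparison, with adjusted p = 0.0735 for TSC2 in hypoxia, 0.0927 for ARRDC4 and 0.102 for SESN1 in eKD2. FPKM without read totals gives no precision for DDIT4L, SESN3 and DEPTOR, which were low throughout.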
